A study of Drosophila melanogaster with 2 samples.

Results

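The genes described here are 9 that encode BTB-domain transcription regulators: chinmo, lola, ttk, ab, bab1, bab2, fru, ken and mamo. All but bab1 and bab2 encode BTB zinc-finger proteins, and those encoded by bab1 and bab2 bind DNA through a pipsqueak-type domain in place of zinc fingers. They were taken as a named list of regulators of developmental timing and fate, and all 9 were found among 13945 protein-coding genes of the Ensembl annotation (BDGP6.54). Peaks were assigned to a gene when the summit lay in its body or within 5 kb of either end, and all positions are on genome build dm6. Of 7326 peaks in the authors' thresholded list, made with the irreproducible discovery rate (IDR), which is meant to keep peaks that rank alike between replicates, 76 met that rule. The animals were whole Drosophila melanogaster prepupae of both sexes, from a transgenic line that carries CG6276 with GFP fused to its C-terminus. Chromatin was sheared to 200 to 800 bp and precipitated with an antibody against GFP, and 2 biological replicates, numbered 2 and 4, were sequenced. The labels give an age of 72 day, whose unit is doubtful for a prepupa, they name no promoter for the transgene, and there is 1 group only, so no comparison between conditions was possible. Only peak lists were used, the sequencing depth behind them is unknown, and no control library was analysed here. Chromosome 2L carries chinmo and ab, 2R lola and ken, 3L bab1 and bab2, 3R ttk and fru, and X carries mamo.

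A BTB zinc-finger protein joins an N-terminal BTB domain, through which such proteins form dimers and recruit partners, to C-terminal zinc fingers that contact DNA. Many of the genes have several promoters and alternative zinc-finger exons, so that a single locus gives proteins of different DNA specificity. In the fly the BTB regulators are known for keeping or switching cell identity over time, in neurons, imaginal discs and the germ line. The prepupa is the stage at which ecdysone starts to turn larval tissue over to adult tissue.

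All 9 genes carried at least 1 thresholded peak, and 7 of them (77.8%) carried a promoter peak, here a summit at most 500 bp from any annotated start of that gene. The genes without a promoter peak were bab1 and bab2. Among all protein-coding genes 13.2% had a promoter peak and 40.1% had any peak by the same rules. Most of the 9 are long, and long genes were reached more often. Of protein-coding genes at least 7.17 kb long, the length of the shortest member, 66.9% had any peak. Among 1013 genes of at least 20 kb, a length chosen after the data were seen that 8 of the 9 genes reach, 73.7% had any peak and 39.1% a promoter peak. No test was made of these shares, because the list is short and was chosen with earlier results known. Among the strongest 7326 peaks of replicate 2 the same list had a promoter peak at 6 of 9 members, against 15.5% of protein-coding genes. Among those of replicate 4 it was also 6 of 9, against 12.9%. For single replicates the share was not taken over genes of at least 20 kb.

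By start rather than by gene, 14 of the 28 distinct starts of the 9 genes (50%) had a thresholded summit within 500 bp. The share was 13.1% over all starts of protein-coding genes and 25.9% over the starts of genes of at least 20 kb. The 15 promoter summits lay between 488 bp upstream and 430 bp downstream of a start, with a median of -165 bp, and 11 of the 15 were upstream. Introns held 45 of the 76 summits (59.2%), the 5 kb flanks held 16 (12 upstream and 4 downstream), and exons outside promoters held 0. Promoter summits made up 19.7% of the peaks of the 9 genes and 15.8% of the peaks of genes of at least 20 kb and 17.5% over all protein-coding genes, each counted at the gene's own starts. Of all thresholded peaks, counted at the start of any gene, 32.4% were at a promoter. Of the intronic summits 10 lay at most 2 kb from the nearest start of their own gene, 16 lay 2 to 10 kb away and 19 lay over 10 kb away. Over all classes 23 of the 76 summits (30.3%) lay over 10 kb from the nearest start of their gene, against 34.0% of the summits assigned to genes of at least 20 kb and 12.3% over all protein-coding genes.

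**Figure D1:**
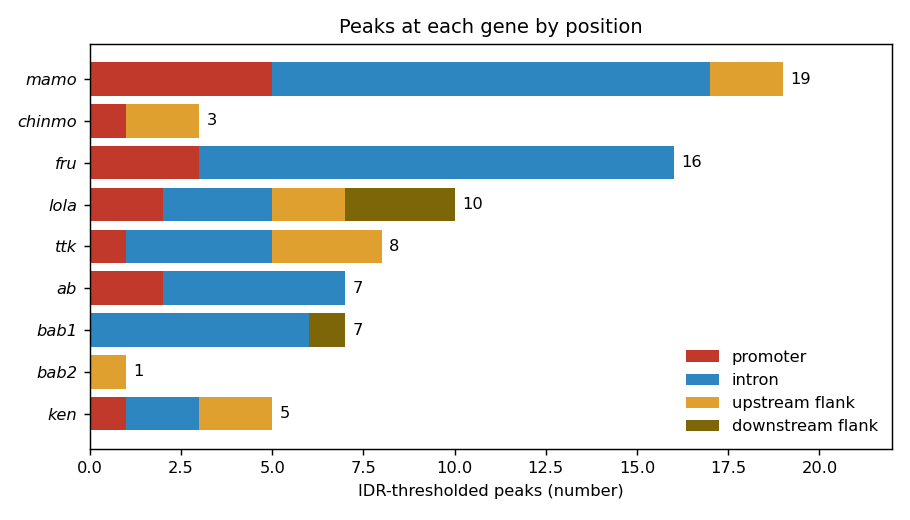
Number of thresholded peaks at each of the 9 genes, stacked by position of the summit (promoter, intron, upstream flank, downstream flank). The genes mamo (19) and fru (16) hold 35 of the 76 peaks, and bab2 holds 1.

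Signal values, the scores given to each peak by the authors' peak caller, differed widely within the group. The median over the 76 peaks was 224.2, against 251.5 over all thresholded peaks, whose range was 139.4 to 4951. The thresholded list held exactly the 7326 strongest peaks of the pooled list of 30000, so a rank in one is a rank in the other. By their strongest promoter peak the genes ran from mamo (1232) through lola (920.7) and ken (664.9) to ab (193.4), ttk (172.6), fru (163.0) and chinmo (152.9). Promoter peaks in the stronger 50% of the list were found at 3 of the 9 genes, namely mamo, lola and ken. The order of the other 4 genes by that same peak, the promoter peak with the highest pooled signal, differed between replicates. Replicate 2 placed the ab peak first among them (4854) and the fru peak at the third start last (8482), although other fru promoter peaks ranked 6826 and 6901 there. Replicate 4 placed that fru peak first (5504) and the ttk peak last (10797). Where a pair of replicate ranks is given from here on, replicate 2 comes before replicate 4.

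**Figure D2:**
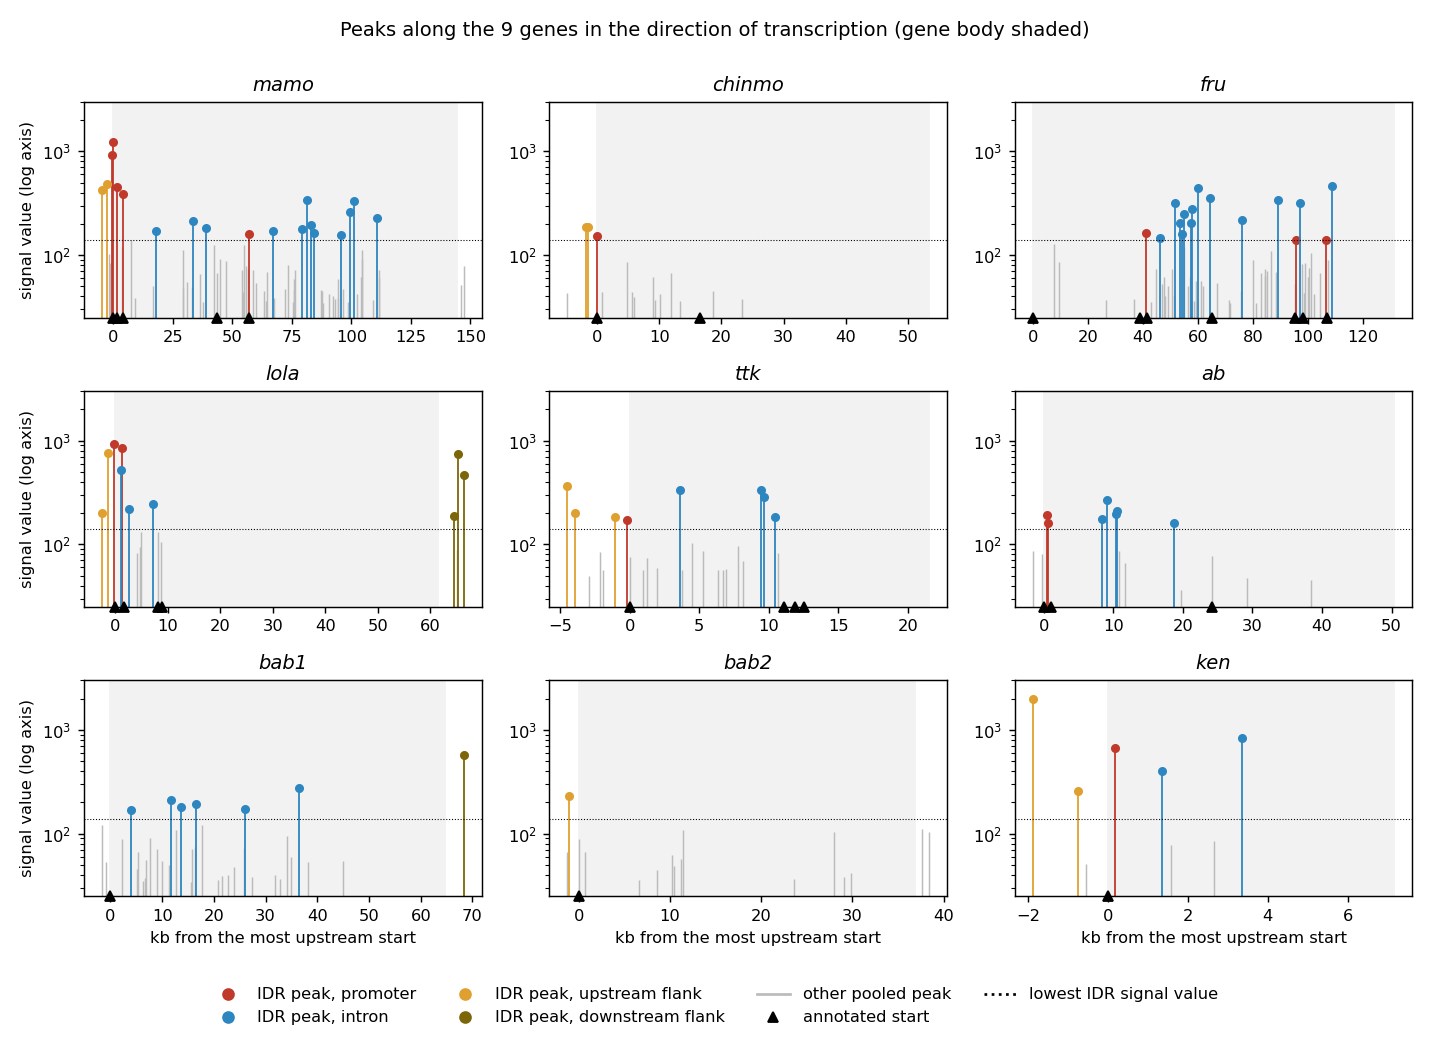
Signal value (log axis) of every pooled peak by its distance in kb from the most upstream annotated start, along the direction of transcription, with 1 panel per gene. Coloured points are thresholded peaks by position, grey lines are the other pooled peaks, triangles are annotated starts, shading marks the gene body, and the dotted line is the lowest thresholded signal value (139.4). Strong peaks crowd the 5′ end of mamo and lola, whereas those of fru lie mostly inside the gene and the chinmo body holds grey lines only beyond its start.

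The gene mamo, needed in the germ line for fertile eggs and known in the brain as a regulator of neuronal identity downstream of Chinmo, held the most peaks. It spans chromosome X from 13846116 to 13990527 on the minus strand (FBgn0267033) and has 5 annotated starts, of which 4 were bound. Across the genome 36 protein-coding genes (0.258%) had 4 or more bound starts. That share is over all genes, most of which have too few starts to reach 4. The median number of starts was 1 per protein-coding gene and 2 among genes of at least 20 kb. The strongest summit lay 114 bp upstream of the most upstream start with a signal value of 1232, at rank 261 of the pooled list. Replicate 2 gave it 604.7 (rank 324) and replicate 4 gave it 592.8 (rank 279). The sequence around this summit is shown for the run of GAGA repeats near its right-hand end. In this and every later sequence capitals mark matches, on either strand, to any of the 5 short words searched, which are a GAGA repeat, an E-box and the others spelled out with their counts further on.
mamo chrX:13990541-13990741 plus strand: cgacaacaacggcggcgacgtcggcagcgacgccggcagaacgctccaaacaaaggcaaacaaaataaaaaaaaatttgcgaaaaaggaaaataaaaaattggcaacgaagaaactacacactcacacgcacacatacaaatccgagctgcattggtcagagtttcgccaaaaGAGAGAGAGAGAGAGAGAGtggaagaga
The window held 8 overlapping matches to GAGAG and none to the other words. A second summit in the same wide peak lay 374 bp upstream (921.7), ranked 600 and 509. Both summits were also within 500 bp of the start of the non-coding gene lncRNA:CR44655, so they cannot be assigned to mamo alone.

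The next mamo starts downstream were bound more weakly. The second start had a summit 206 bp upstream with a signal value of 448.2 (rank 1920 in replicate 2 and 1609 in replicate 4), and the third had one 180 bp upstream with 388.1 (1871 and 2444). The most downstream start, the fifth, had a weak peak of 160.2, at ranks 4895 and 7964. For the fourth start the pooled list held a peak of 67.34 that did not pass, ranked 12963 in replicate 2, and replicate 4 listed no peak within 500 bp. All 5 promoter summits of mamo were upstream of their start. Further upstream, peaks of 489.7 and 425.2 lay 2813 and 4658 bp from the most upstream start. Starts of other genes were nearer, with lncRNA:CR44655 2607 bp from the first of these peaks and ben 1160 bp from the other. Inside mamo 12 intronic peaks ran from 156.1 to 341.6, of which 9 lay beyond the fifth start, up to 53706 bp from it. Of 71 pooled peaks at mamo 52 did not pass, and the strongest of those (138.9) ranked 7363, just below the list's end.

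The gene chinmo keeps larval tissues and young neurons in their early state and is switched off as animals mature. It lies on chromosome 2L from 1651258 to 1704682 on the plus strand (FBgn0086758). Its density of 0.473 peaks per 10 kb of body and flanks was the lowest of the group after bab2. That was near the median of genes of at least 20 kb (0.523), of which 51.8% were denser. The 3 thresholded peaks of chinmo all fell within 1.81 kb around the upstream start. The promoter summit was 45 bp downstream of that start with a signal value of 152.9, and ranked 7960 in replicate 2 and 6333 in replicate 4. The peaks 1548 and 1768 bp upstream had 185.3 and 184.5. Of these the nearer one ranked 5597 and 6190, whereas the further one overlapped a replicate 4 peak (rank 5583) and none in replicate 2, where the nearest summit was 222 bp away. Windows at the nearer upstream summit and at the promoter summit are shown because each holds a CACTG, which is CAGTG on the other strand. The GAGA repeat is found in the upstream window as well.
chinmo upstream chr2L:1649610-1649810 plus strand: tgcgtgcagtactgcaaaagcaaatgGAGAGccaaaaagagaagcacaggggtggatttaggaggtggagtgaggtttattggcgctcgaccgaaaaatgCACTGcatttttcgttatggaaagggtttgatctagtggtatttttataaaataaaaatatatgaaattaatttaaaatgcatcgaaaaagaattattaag
chinmo promoter chr2L:1651203-1651403 plus strand: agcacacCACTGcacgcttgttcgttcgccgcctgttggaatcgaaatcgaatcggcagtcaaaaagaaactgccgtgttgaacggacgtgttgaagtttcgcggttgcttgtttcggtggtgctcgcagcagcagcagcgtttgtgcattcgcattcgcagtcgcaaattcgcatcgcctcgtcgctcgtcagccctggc
Beyond the promoter no thresholded peak lay in the 53.4 kb body, and the 12 other pooled peaks at the gene had signal values of at most 85.22 (rank 12309). The downstream start, used by 2 of 6 annotated transcripts, had no peak within 500 bp in any list. The nearest thresholded summit was 16544 bp from it.

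The gene fru, whose male-specific proteins organise courtship behaviour and whose common forms act in development of both sexes, was bound mostly between its promoters. It spans chromosome 3R from 18414273 to 18545586 on the minus strand (FBgn0004652) and has 7 starts, of which 3 were bound. Those promoter peaks were weak. The third start had 163.0, the fifth 140.4 and the seventh 140.0, at ranks 8482, 6901 and 6826 in replicate 2 and 5504, 9323 and 9957 in replicate 4. Each of the 3 was among the strongest 7326 peaks in only 1 of the replicates. The most upstream start, used by 8 of 15 annotated transcripts, had no peak within 500 bp in any list, and the nearest thresholded summit was 28374 bp away.

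Introns held 13 of the 16 fru peaks, with signal values from 146.6 to 467.8. Of these 9 lay between the third and the fourth start, and 7 of them fell within 8.51 kb (summits from 18485458 to 18493964). The strongest intronic peak lay 1987 bp downstream of the seventh start (467.8). It ranked 5046 in replicate 2 and 1549 in replicate 4. Its summit window held a single CACTG and is shown as the strongest fru site.
fru intronic chr3R:18436684-18436884 plus strand: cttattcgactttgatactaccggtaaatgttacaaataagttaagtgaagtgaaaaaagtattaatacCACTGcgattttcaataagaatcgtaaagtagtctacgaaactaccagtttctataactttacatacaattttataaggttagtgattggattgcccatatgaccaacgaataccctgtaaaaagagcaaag
The next peaks had 439.7, 4782 bp upstream of the fourth start, and 353.9, 633 bp upstream of it. At fru 13 of 16 peaks ranked better in replicate 4 and 3 better in replicate 2. Over all thresholded peaks overlapped in both replicate lists, 50.4% ranked better in replicate 4. Of the 3 peaks stronger in replicate 2, 1 was ranked 2306 there and overlapped only a weak peak (rank 20211) in replicate 4, and the others were at the fifth and the seventh start.

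The gene ttk encodes repressors, known as Ttk69 and Ttk88, that hold back neuronal fate and act in eye, trachea and glia. It lies on chromosome 3R from 31713867 to 31735392 on the plus strand (FBgn0003870), and 1 of its 4 starts was bound. The promoter summit, 165 bp upstream of the most upstream start, had a signal value of 172.6 and ranked 5408 in replicate 2 and 10797 in replicate 4. Stronger peaks flanked it: 361.8 at 4468 bp upstream, and in introns 332.3 at 3589 bp downstream and 334.6 at 1672 bp upstream of the second start. The first of these ranked 1905 and 2598, and lay 124 bp downstream of the start of lncRNA:CR34046. Its window and that of the promoter summit are shown for their GAGA repeats, most of them read as CTCTC on the plus strand.
ttk upstream chr3R:31709299-31709499 plus strand: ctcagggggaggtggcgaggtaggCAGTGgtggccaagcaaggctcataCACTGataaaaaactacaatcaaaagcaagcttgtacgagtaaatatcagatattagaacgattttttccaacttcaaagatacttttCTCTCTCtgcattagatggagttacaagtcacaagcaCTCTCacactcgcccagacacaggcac
ttk promoter chr3R:31713602-31713802 plus strand: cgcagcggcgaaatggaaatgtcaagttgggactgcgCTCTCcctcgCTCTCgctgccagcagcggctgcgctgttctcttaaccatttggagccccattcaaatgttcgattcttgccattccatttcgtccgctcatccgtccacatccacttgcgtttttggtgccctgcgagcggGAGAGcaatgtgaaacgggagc
The upstream window also held CAGTG on both strands. No thresholded peak came within 500 bp of the other starts. The second start had a pooled peak of 81.60, the third a peak in replicate 2 alone (109.1, rank 4821), and the fourth none in any list. With 8 peaks the gene had 2.54 per 10 kb of body and flanks, a density exceeded by 3.55% of genes of at least 20 kb.

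The gene ab, which limits dendrite branching in simple sensory neurons of the larva, spans 11210678 to 11261080 on the plus strand of chromosome 2L (FBgn0264442). It had 7 peaks. Summits 430 bp downstream of the first start and 488 bp upstream of the second, with signal values of 193.4 and 162.1, both lay in the short stretch between those starts, in overlapping peaks. They ranked 4854 and 6022 in replicate 2, and 6723 and 7495 in replicate 4. The 5 intronic peaks all lay between the second and the third start, and 4 of those were 7307 to 9472 bp downstream of the second. The strongest had 266.3 and ranked 3074 and 4776. Its AT-rich window (24.4% G or C) is shown for the CAGTG and CACTG that stand side by side.
ab intronic chr2L:11219730-11219930 plus strand: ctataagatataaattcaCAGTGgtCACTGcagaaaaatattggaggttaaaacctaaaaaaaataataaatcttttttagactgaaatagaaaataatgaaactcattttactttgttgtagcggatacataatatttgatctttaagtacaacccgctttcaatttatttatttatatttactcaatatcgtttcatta
The third start had a pooled peak of 77.60, 4 bp upstream, that did not pass.

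The neighbouring genes bab1 and bab2 pattern the leg and pigmentation of the abdomen and the ovary's terminal filaments, and they differed in the number of peaks. The gene bab1 lies on chromosome 3L from 1036369 to 1101089 (FBgn0004870) and bab2 from 1140429 to 1177276 (FBgn0025525), both on the minus strand with a single start. At bab1 there were 7 peaks and at bab2 there was 1, while the pooled list held 36 and 16. No list had a peak within 500 bp of the bab1 start. At the bab2 start the pooled list had a peak of 88.31, at rank 13926 in replicate 2 and 14792 in replicate 4, and the only thresholded peak lay 1022 bp upstream (227.9, ranks 5730 and 3577). The bab1 body held 6 intronic peaks, 3965 to 36474 bp from the start, with signal values of 167.8 to 273.6. The seventh and strongest (572.2, ranks 1504 and 1030) was in the downstream flank, inside the gene trio. The strongest site within bab1 and the single site of bab2 are shown, with 27.9% G or C at the bab1 site and 53.7% at the bab2 site.
bab1 intronic chr3L:1064515-1064715 plus strand: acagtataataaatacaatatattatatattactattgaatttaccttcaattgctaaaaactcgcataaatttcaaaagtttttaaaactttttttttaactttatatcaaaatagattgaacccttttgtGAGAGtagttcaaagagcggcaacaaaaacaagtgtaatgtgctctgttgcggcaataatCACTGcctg
bab2 upstream chr3L:1178198-1178398 plus strand: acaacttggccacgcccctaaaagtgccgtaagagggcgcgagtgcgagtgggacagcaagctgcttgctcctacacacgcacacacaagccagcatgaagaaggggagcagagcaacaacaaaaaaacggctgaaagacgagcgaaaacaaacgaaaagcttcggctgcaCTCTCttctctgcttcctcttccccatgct
Each window holds a GAGAG on either strand, and bab1 holds a CACTG as well.

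Across the 76 windows of 201 bp centred on the summits, 37 (48.7%, 95% Wilson interval 37.8% to 59.7%) held CAGTG on either strand, against 42.6% of all thresholded summits. Of these windows 2 were among the 15 at promoter summits and 24 among the 45 at intronic ones. In windows of 50 bp to each side these counts were 0 and 14. No such split was made over all summits. The window at the strongest ab promoter summit, not shown, held none of the 5 words. GAGAG, a repeat bound by the GAGA factor, was found in 23 windows (30.3%, against 28.6%). These windows came from all 9 genes, and from 6 of them when only 50 bp to each side were searched. No such count by gene was made outside the 9. AGGAC, the core of known Ttk sites, was found in 8 (10.5%, against 8.20%), and the E-box CACGTG in 1 (1.32%, against 1.65%). TATCGA, the core of the DNA replication-related element, was found in 9 windows (11.8%, interval 6.36% to 21.0%, against 6.80%), 3 each at bab1, fru and mamo, of which 8 were intronic. In windows of 50 bp to each side it was found in 7 (9.21%, interval 4.53% to 17.8%, against 3.30%), and in windows of 150 bp to each side in 10 (13.2%, interval 7.31% to 22.6%, against 9.81%). Of the 5 words only TATCGA is given here with intervals at all 3 widths, and no test was made. The windows come from 9 genes and are not independent, so the intervals cannot decide whether a share differs from the background. The intervals cover counting error only, and windows of overlapping peaks share bases. A word match is a description and does not show that a factor binds there. The median window had 37.6% G or C, against 35.8% over all thresholded summits.

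The peaks of the 9 genes were matched to the peaks of each replicate, and no test was made of the shares. Of the 76 peaks 74 overlapped a peak in both replicate lists by at least 1 bp (97.4%, against 96.1% of all thresholded peaks), and 52 shared at least 50% of both lengths (68.4%, against 75.3%). Within the strongest 7326 peaks of both replicates lay 48 (63.2%, against 69.2%). A replicate peak could be matched to more than 1 thresholded peak, as happened at lola and ab. Thresholded peaks were chosen from these same lists by the authors' procedure, so these shares are not independent evidence of agreement. The thresholded list equals the 7326 strongest pooled peaks. A place in it therefore does not show that a single peak ranked alike in both replicates. Single peaks moved by many ranks: the fru peak 4517 bp downstream of the third start ranked 22188 in replicate 2 and 3633 in replicate 4.

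**Figure D3:**
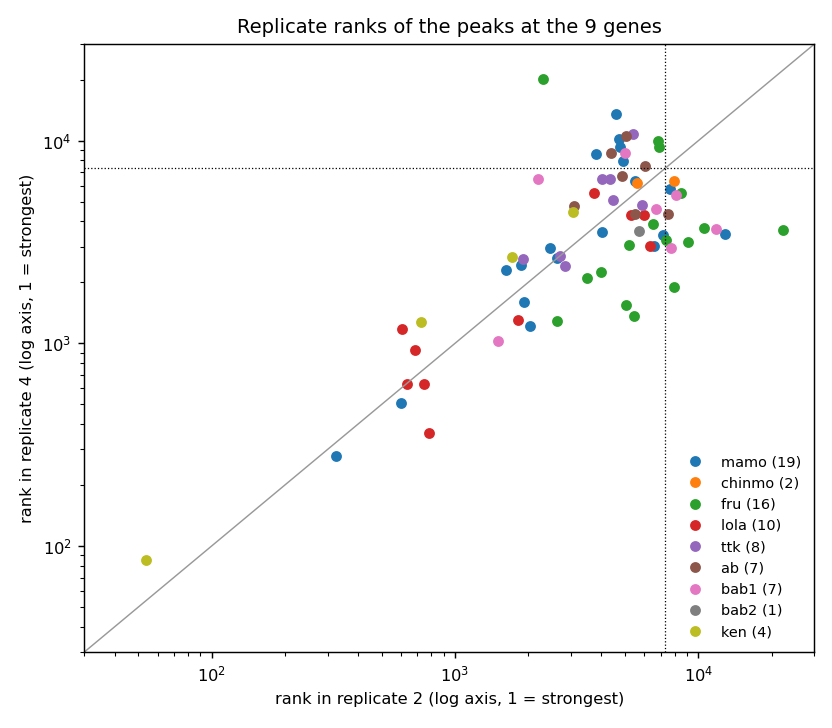
Rank in replicate 4 against rank in replicate 2 (log axes, 1 is the strongest) for the 74 peaks overlapped in both lists, coloured by gene with the number of peaks in brackets. The diagonal marks equal ranks and the dotted lines mark rank 7326; most fru points lie under the diagonal, where the rank is better in replicate 4.

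The gene lola, which guides axons and gives rise to many proteins by alternative 3′ exons, spans 10481894 to 10543291 on the minus strand of chromosome 2R (FBgn0283521). It had 10 peaks, and all 10 overlapped a peak among the strongest 7326 of both replicates by at least 1 bp. Its 2 upstream starts were strongly bound. The summit 105 bp upstream of the first had a signal value of 920.7, with 389.5 in replicate 2 (rank 785) and 523.6 in replicate 4 (rank 361). The summit 347 bp upstream of the second had 840.9, ranked 638 in replicate 2, and lay 422 bp downstream of the start of asRNA:CR45135. In replicate 4 it overlapped a peak at rank 628 whose summit was 130 bp away. That replicate 4 peak also overlapped the intronic lola peak of 517.2, so its rank belongs to neither summit alone. The third start, used by 11 of 24 annotated transcripts, and the fourth, used by 3, had pooled peaks of 131.2 and 105.4 that did not pass. Among the strongest 7326 peaks of a replicate, the third start was reached in replicate 2 alone (102.0, rank 5244) and the fourth in replicate 4 alone (124.6, rank 3769). A further peak of 756.7 lay 1432 bp upstream of the gene.

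At the other end of lola, 3 peaks lay in the downstream flank and at or inside whd and asRNA:CR45134 (744.4, 469.8 and 187.6). The strongest was 11 bp upstream of the asRNA:CR45134 start and the weakest 157 bp upstream of that of whd, and all 3 were at least 55630 bp from any lola start. The body between the fourth start and the 3′ end, where the alternative zinc-finger exons lie, held no thresholded peak.

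The gene ken, a repressor of some JAK/STAT targets that is needed for the genitalia, is the shortest of the 9. It spans 23870273 to 23877442 on the plus strand of chromosome 2R (FBgn0011236) with a single start, and its 5 peaks gave 2.91 per 10 kb, the highest density in the group. The strongest of all 76 peaks lay 1879 bp upstream of it, with a signal value of 1992 and ranks 54 in replicate 2 and 85 in replicate 4. That summit was 209 bp downstream of the start of Mtpbeta, a fatty acid oxidation gene, and inside it. The promoter summit, 191 bp downstream of the ken start, had 664.9 (ranks 727 and 1269). Intronic peaks lay 1366 bp (396.5) and 3346 bp (830.6) downstream. The peak 3346 bp downstream ranked 614 in replicate 2 and overlapped no peak of replicate 4, whose nearest summit was 696 bp away at rank 18422.

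Scaled by length, the 9 genes together had 1.15 peaks per 10 kb of body and flanks, against 0.640 over genes of at least 20 kb and 0.585 over all protein-coding genes. Single genes ranged from 0.213 (bab2) and 0.473 (chinmo) to 2.54 (ttk) and 2.91 (ken). The median gene of at least 20 kb had 0.523, with quartiles of 0 and 1.13. By these values bab2 and chinmo were below that median, and ab, lola, mamo, ttk and ken above the upper quartile. At 7.17 kb ken is not itself in that set, and flanks make up most of the 17.2 kb searched for it. These densities count every summit in reach, for all genes alike. Of the 76 peaks 7 lay within 500 bp of another gene's start and 8 inside another gene. Overlapping peaks were counted singly, and the 76 formed 70 joined regions (5 from 7 peaks at ab). At lola 3 of the 10 peaks were those of the downstream flank. At least 5 peaks were found at 7 of the 9 genes and at 33.1% of genes of at least 20 kb. By number of peaks 15 protein-coding genes had more than mamo and 28 had more than fru.

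**Figure D4:**
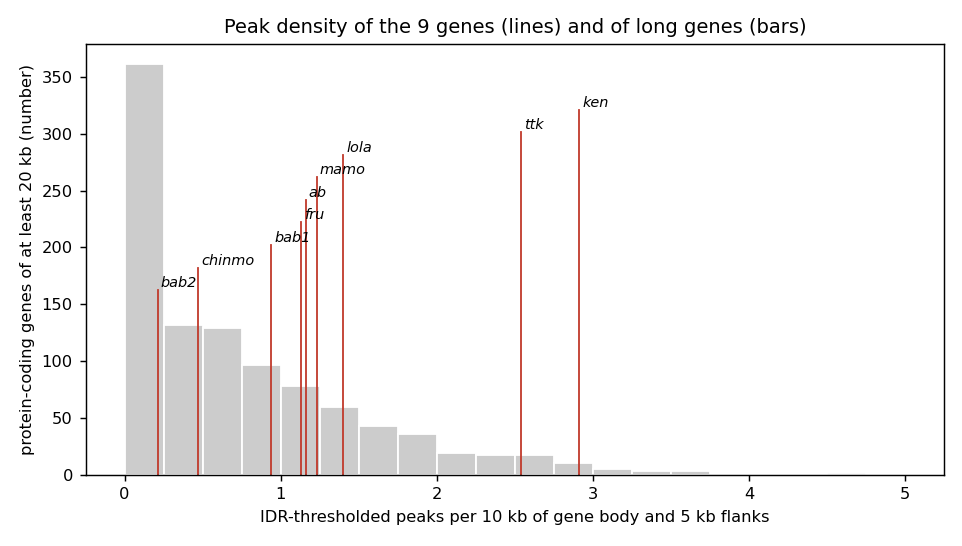
Thresholded peaks per 10 kb of gene body and 5 kb flanks. Bars count the 1013 protein-coding genes of at least 20 kb, and lines mark the 9 genes, of which ken is shorter than 20 kb. The lines run from 0.213 at bab2 to 2.91 at ken.

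Genes that act with these regulators were bound to differing extents. Of 13 developmental timing genes found as protein-coding, 8 had a promoter peak (61.5%, against 13.2% of all protein-coding genes). Of these 13 genes 9 are at least 20 kb long, and 39.1% of genes of that length had a promoter peak. The strongest were at Syp (1149), an RNA-binding protein gene of late neurons, hb (1042), a temporal identity factor of early ones, and Eip93F (833.6), which directs adult differentiation. The early ecdysone gene br, itself a BTB zinc-finger gene and named after its values were seen, had 4 peaks and none at a promoter. Of 15 genes of BTB proteins outside the 9, some with no zinc finger, 4 had a promoter peak (26.7%, against 13.2% of all protein-coding genes). At least 20 kb long are 4 of the 15. These 15 include br, which is also counted among the 13 developmental timing genes. The strongest were at psq (1562), which encodes a pipsqueak-domain protein, Trl (688.8), which encodes the GAGA factor, and lolal (230.8), which encodes little beyond a BTB domain. Any peak was found at 8 of the 15 (53.3%, against 40.1% of all protein-coding genes). Of 8 sex determination genes, which control fru splicing or act beside it, 2 had a promoter peak: dsx (560.4) and Sxl (527.8). Of 7 JAK/STAT genes 2 had one (28.6%), Stat92E (293.7) and upd3 (152.0), and of 4 genes of Ttk turnover (sina, sinah, phyl and ebi) 0 did. No JAK/STAT or Ttk turnover gene is as long as 20 kb. The share over all protein-coding genes, 13.2%, holds beside these short lists as well.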

How the data were processed

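ChIP-seq peak lists on genome build dm6 were used, in the narrowPeak format, for whole prepupae of 1 group with 2 biological replicates. Per the labels and the deposited descriptions, each replicate list came from that library's alignment and a further undescribed file, and both alignments gave the pooled list. An irreproducible discovery rate (IDR) step on these 3 lists gave the thresholded one. The signal value is a score deposited by the authors with each peak, and it served only to rank and describe peaks within a list. Not given in the sources used here are the aligner, caller, IDR threshold and depth, and no control library was analysed here.

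Positions are 1-based, with summits at the start plus the summit offset. Genes and starts came from Ensembl (BDGP6.54), with transposable elements left out, and bases from the RefSeq Release 6 genome, whose chromosome lengths contain all peaks and genes. Replicate peaks were matched by shared bases, taking the nearest summit. Wilson intervals (95%) cover counting only. Words were searched on both strands 100 bp to each side of a summit with Python 3.11.15 and pandas 2.3.3. Gene counting was tested on simulated data. Every member was described, with its promoter peaks and strongest other peak, and other lists by counts and up to 3 genes with the strongest promoter peak. The members and lists were chosen with earlier results of these data known. No significance test was made. Peaks of 1 gene are not replicates. Alternatives were other promoter distances, flanks, overlap rules and windows, the stronger 50% of peaks, and each replicate alone. The dm3 lists were not used here.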

Additional observations from a re-analysis of the deposited data

How the results depend on the processing

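Each replicate alone, by its strongest 7326 peaks, gave 6 genes with a promoter peak, 67 to 70 peaks at the 9 genes, 11 to 16 promoter peaks, 37 to 38 intron peaks and 1.01 to 1.06 peaks per 10 kb. Replicate 2 alone lacked the chinmo promoter and replicate 4 alone that of ttk. Of 47 alternative values 35 were within 1.5 times of the reported one. In the stronger 50% of the thresholded list, which holds fewer peaks by construction, 3 genes had a promoter peak, with 34 peaks in all, 7 at promoters, 18 in introns and 0.514 per 10 kb. Windows of 50 bp to each side gave 13 with GAGAG, 17 with CAGTG, 4 with AGGAC and 0 with CACGTG, and windows of 150 bp gave 38 with GAGAG and 2 with CACGTG, since the length searched differs. The background share of genes with a promoter peak was 39.1% among genes of at least 20 kb, chosen after the data were seen, in place of 13.2%. With the gene body alone the genes held 56 peaks and bab2 none. Matching by at least 80% of both lengths left 35 of 76 peaks matched in both replicates, and summits within 100 bp left 70. No paired analysis was possible because there is 1 group. Depth is unknown, so a missing peak in 1 replicate cannot be told apart from lower coverage there.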
